A study of Bos taurus with 2 samples.

Results

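Methylated stretches of the sperm genome in which a pair of monozygotic twin bulls differed little were examined as 100 kb windows of the 29 bovine autosomes. A window entered when its CpG sites were at least 65% methylated in both libraries and when its level in Bull1 was less than 2 percentage points above that in Bull2. Methylated reads were summed over a window and divided by its summed reads to give the level, at sites covered by 5 to 400 reads in both libraries, in windows with 200 or more such sites. Of 25086 windows with enough sites, 23290 were methylated by this rule, and 312 of these also met the limit on the difference, which is 1.34% of methylated windows. Without the limit on the level 965 windows, or 3.85% of all, had such a difference. The choice rests on the same levels as the values below, so these values are a description of the 312 windows and no test was run on the window levels. They are called low-difference windows here and not windows that escaped the general shift, because 243 of them differed by 2 points or more once both libraries gave each site the same weight.

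The data came from whole-genome bisulfite sequencing (WGBS), in which bisulfite converts unmethylated cytosines so that the remaining ones are read as methylated. There was 1 library of sperm DNA from Bull1 and 1 from Bull2, untreated Holstein bulls that share their genome, from frozen semen collected on separate days within a week at 72 months of age, and the study compared them because their semen quality differed. With 1 library per bull there is no replicate spread, and a difference between libraries cannot be told apart from a difference between animals. Bull1 had 544424736 and Bull2 499287038 reads summed over listed CpG sites, a mean of 20.01 and 18.4 reads per site. The text of the study gives the greater depth to Bull2, in mapped reads and in average read depth, which is the reverse of the tables. Over used autosomal sites the level was 79.3% in the table labelled Bull1 and 75.3% in that labelled Bull2. The study names the same bull as the more methylated one. Each table was assigned to a bull by its label. The tables hold no gene-level values against which the label sperm could be checked. Genes inside the windows were not analysed here, because an annotation of the genome build of the files (UMD3.1) was not used.

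In mammals a methyl group is placed on cytosine in CpG pairs, and in sperm most CpG sites carry it. The main exceptions are clusters of CpG sites, called CpG islands, that often lie at gene promoters and stay unmethylated. A large window therefore usually mixes methylated sites with a few unmethylated clusters, and its level depends on the share of reads that fall on each kind. Satellite DNA next to the centromeres is another known exception, less methylated in bull sperm than in somatic cells. Bovine autosomes carry the centromere at one end, where positions conventionally start.

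Over all sites of the 312 windows, the level of Bull1 was 75.8%, or 4382367 methylated of 5777782 reads, with an exact 95% interval from 75.8 to 75.9%. That of Bull2 was 74.5%, or 3935243 of 5284999 reads, with an interval from 74.4 to 74.5%. The difference was 1.39 points, with a Newcombe 95% interval of 1.34 to 1.44 that covers counting error only. In the other 22978 methylated windows the levels were 83.8% and 79.8%, a difference of 4.02 points. The low-difference windows were thus the less methylated of both sets. That the gap between the sets was larger in Bull1 than in Bull2 follows from the limit on the difference. The window medians were 74.8% against 84.6% in Bull1 and 73.3% against 80.4% in Bull2.

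Single windows ranged from -0.673 to 1.999 points with a median of 1.61, whereas the median of all methylated windows was 4.07. Only 4 windows were higher in Bull2, 45 lay below 1 point, and 267 lay between 1 and 2 points. Most of them therefore stood close to the limit. The counting interval of a window reached a median of 0.942 points to either side, so that windows near the limit cannot be told from their neighbours beyond it. Just inside the limit lay chr23:16100001-16200000 with 78.5% and 76.5%, chr10:21200001-21300000 with 73.9% and 71.9%, and chr2:8800001-8900000 with 79.1% and 77.1%. Just outside lay chr25:24600001-24700000 with 72.3% and 70.3%, chr3:300001-400000 with 74.5% and 72.5%, and chr25:34800001-34900000 with 80.2% and 78.2%. All 6 had differences between 1.998 and 2.01 points.

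The limit on the level cut through a denser set. Of the methylated windows whose lower level was between 65 and 70%, 10.5% were low-difference windows, against 3.51% between 70 and 75%, 1.06% between 75 and 80% and 0.345% between 80 and 85%. At 85% or above the share was higher again, with 7 of 1196 windows (0.585%). Among the 1796 windows under 65% in either library, 36.4% had a difference below 2 points. Just inside this limit lay chr18:46900001-47000000 with 66.7% and 65.1%, chr15:19700001-19800000 with 66.8% and 65.1%, and chr1:98300001-98400000 with 66.6% and 65.1%. Just outside it, with differences that would have qualified, lay chr7:45000001-45100000 with 66.8% and 64.98%, chr3:17400001-17500000 with 65.2% and 64.9%, and chr25:40700001-40800000 with 66.1% and 64.9%.

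The next comparison asked how much of the small difference was found at the same sites. Each library weights a site by its own reads in the levels above, so a window also changes when reads of one library fall more often on its weakly methylated sites. When each site was given the same weight in both libraries, its reads summed over both, the 312 windows had 76.4% in Bull1 and 73.9% in Bull2. The difference rose from 1.39 to 2.55 points, and the other methylated windows went from 4.02 to 3.90. By window, the median of the low-difference windows was 2.58 points with shared weights, with quartiles of 2.08 and 3.05, beside 3.96 in the other methylated windows. The windows thus remained below the usual difference, but by a smaller gap. Shared weights use the same reads as the rule, so a low value by this measure is favoured by the choice.

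With shared weights 69 of the 312 windows (22.1%) stayed below 2 points, 157 lay between 2 and 3, and 86 at 3 or above. Among all methylated windows 0.421% were below 2 points by this measure. The difference with shared weights was below the median of methylated windows, 3.95 points, in 305 of the 312. The remainder, own weights minus shared weights, was negative in 289 of 312 windows (92.6%) and in 41.1% of the other methylated windows. Since the rule keeps windows with a small sum of both parts, a negative remainder and a low difference with shared weights are both favoured by the choice itself.

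**Figure D1:**
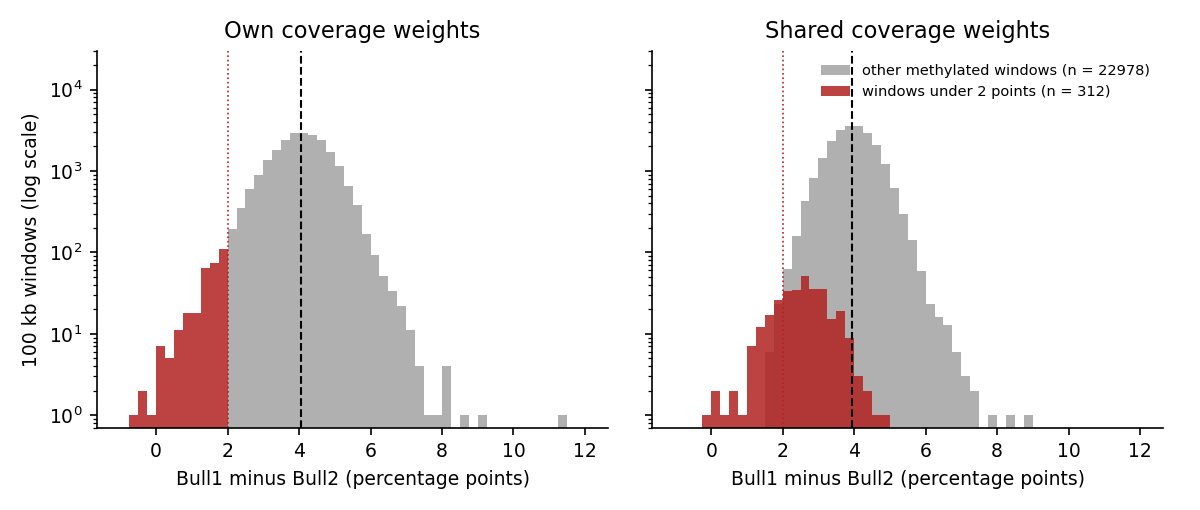
Number of 100 kb windows (log scale) by Bull1 minus Bull2 in percentage points, with each library weighted by its own coverage (left) and with shared weights (right). Red bars are the 312 low-difference windows and grey bars the other 22978 methylated windows, drawn from the same baseline. The dashed line is the median of all methylated windows and the dotted line the limit of 2 points. On the right the red windows spread from -0.126 to 4.95 points and only 69 stay under the limit.

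The reads behind this remainder can be located. Sites whose pooled level was under 20% took 9.54% of the reads of Bull1 and 8.50% of those of Bull2 in the low-difference windows, and 4.51% and 4.57% in the other methylated windows. The mean coverage of these sites was 14.99 reads in Bull1 and 12.2 in Bull2, a ratio of 1.23, while all sites of the low-difference windows had a ratio of 1.09. Sites pooled at 80 to 95% had a ratio of 1.07, and those pooled at 95% or more had 1.11. Bull1 placed a larger share of its reads than Bull2 on sites under 50% in 292 of 312 windows (93.6%), against 46.6% of the other methylated windows. Pooled levels come from the same reads, so these classes are not independent of the rule.

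At sites of like level the libraries differed less in the low-difference windows than in the others, which the choice of windows favours. Where the pooled level was 50 to 80%, Bull1 was higher by 2.24 points in low-difference windows and by 4.90 in the others. Where it was 80 to 95%, the values were 3.49 and 4.40 points. Sites pooled at 20 to 50% were lower in Bull1 by the narrow margin of 36.6% against 37.1%, while in the other windows they had 39.2% and 37.6%. In the lowest class the levels were 3.83% and 3.84%, against 3.09% and 2.87% in the other windows.

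Sorting sites by the number of CpG sites listed within 100 bp on each side, a property that no methylation value enters, showed where the libraries crossed. At sites with 1 to 2 such CpG sites, own site included, the levels in low-difference windows were 79.2% in Bull1 and 76.4% in Bull2. At 3 to 5 they were 78.4% and 76.3%. At 6 to 10 they were 73.6% and 73.9%, at 11 to 15 67.6% and 70.02%, and at 16 or more 47.3% and 51.9%. The difference fell from 2.82 points at isolated sites to -4.56 points in the densest class when reads were pooled over windows. The other methylated windows went from 4.47 to 0.415 points over the same classes and did not turn negative. The differences inside the classes come from the reads that the rule used, so low values in the low-difference windows are favoured by the choice.

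The negative values depended on the weighting. With shared weights the difference in low-difference windows was 3.29, 2.77, 1.88, 1.29 and 0.519 points from the sparsest to the densest class, positive in all 5. In the other methylated windows it was 4.34, 3.97, 3.29, 2.17 and 1.37 points. The low-difference windows were therefore below the others in each class by this measure. With own weights the difference of the densest class stayed between -4.68 and -4.42 when any 1 of the 212 windows that hold such sites was left out. All of these windows were chosen for a low difference, so this shows only how far 1 window moved the pooled value. The pooled values were not those of a typical window, however. By window, Bull1 was lower in 176 of 312 windows (56.4%) at 6 to 10 CpG sites, with a window median of -0.466 points, against 8.53% of the other methylated windows. At 11 to 15 it was lower in 137 of 264 windows (51.9%), with a median of -0.222, against 35.7%. At 16 or more it was lower in 103 of 212 (48.6%), with a median of 0, against 38.2%.

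**Figure D2:**
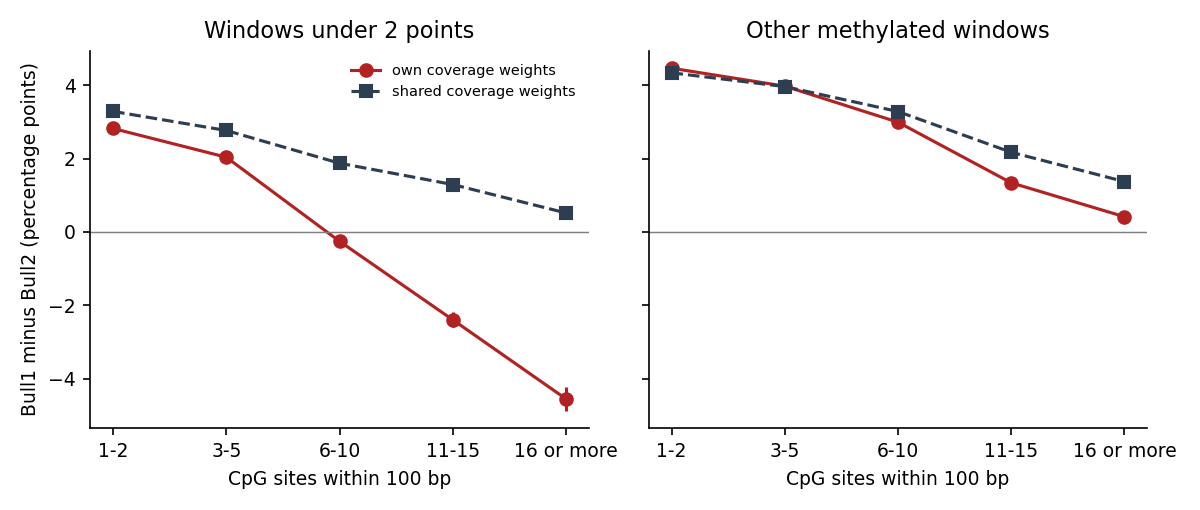
Bull1 minus Bull2 in percentage points by the number of CpG sites within 100 bp, pooled over the sites of the low-difference windows (left) and of the other methylated windows (right). Circles use each library's own coverage, with vertical bars for the 95% counting interval, and squares use shared weights. The circles on the left fall to -4.56 points at 16 or more CpG sites while the squares end at 0.519.

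Compared with the other methylated windows, the low-difference windows held more clustered CpG sites, and a smaller share of their listed sites was usable. The median share of dense sites, those with at least 11 CpG sites listed within 100 bp, was 5.95%, against 2.14% in the other methylated windows. The median share of sites pooled under 20% was 10.1% against 4.24%. A median of 89.2% of listed CpG sites had enough coverage, against 95.6%. The 1796 windows under the limit on the level had medians of 8.16%, 19.5% and 89.1% on these measures. Their median difference was 2.65 points. Whether these traits go with the small difference or with the lower level was not tested, since windows of like level were not compared. The number of used sites was close in low-difference and other methylated windows, with medians of 809 and 793, but the upper quartiles were 1265 and 1089. Among methylated windows with 2000 or more used sites 4.66% were low-difference windows, and among those with under 50% of listed sites usable the share was 16.7%, or 8 of 48. Median coverage was 21.1 and 18.8 reads per used site in Bull1 and Bull2, close to the 22.0 and 19.8 of the other methylated windows. The larger shares of clustered and weakly methylated sites were found in the 243 windows that reached 2 points with shared weights, with medians of 7.47% dense sites, 11.9% of sites pooled under 20% and 87.6% of listed sites usable. The 69 windows that stayed below had 1.51%, 4.99% and 94.2%, near the other methylated windows on these measures. In level the 69 were further away, with medians of 71.6% in Bull1 and 70.1% in Bull2. The 243 had 75.8% and 74.4%, and the other methylated windows 84.6% and 80.4%.

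Few of the windows lay next to each other. They formed 304 single windows and 4 adjacent pairs, with no run of 3. An adjacent window under the limit on the level could not extend a run, whatever its difference. The pairs were chr9:49700001-49900000 with differences of 1.83 and 1.66 points, chr18:800001-1000000 with 1.13 and 0.0751, chr18:50500001-50700000 with 1.85 and 1.52, and chr21:42900001-43100000 with 1.53 and 1.69. With shared weights only the pair at the start of chromosome 18 kept both windows below 2 points, at 1.29 and 0.679. The pair on chromosome 9 rose to 3.58 and 4.23.

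The windows next to them, which the rule had not chosen, are given for comparison. The 605 adjacent windows had a median of 3.70 points with quartiles of 3.04 and 4.33, and 30 of them were below 2 points. Adjacent windows that met the rule are not among the 605, so those that were methylated could not fall below 2 points. At 1000 kb on either side the medians were 3.78 and 3.84. Parts of windows that took no role in the choice were read in the same way. Windows were chosen by the same limits on level and difference from the odd-numbered 10 kb blocks alone, which gave 837 windows. This set is larger than that of the low-difference windows, so its values are not those of the low-difference windows alone. The 835 windows that could be read had a median of 1.52 points over the chosen blocks. Over the blocks left out the median was 3.77, and 8.26% were below 2 points. Choosing on the even-numbered blocks gave 797 windows, of which 796 could be read, with 1.57 and 3.73 points and 9.42%. Windows that had not been chosen had medians of 4.10 and 4.08 over the blocks left out, with 3.64% and 3.81% below 2 points.

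**Figure D3:**
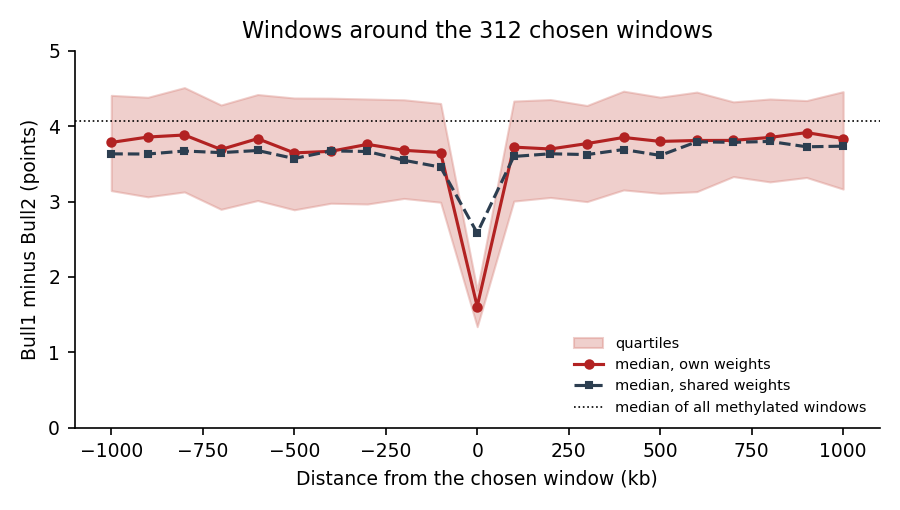
Bull1 minus Bull2 in percentage points for windows up to 1000 kb on either side of the 312 low-difference windows. Circles are medians with own weights, the band spans their quartiles, squares are medians with shared weights, and the dotted line is the median of all methylated windows, 4.07 points. The dip from 3.65 points at -100 kb to 1.61 at 0 and back to 3.72 at 100 kb takes in a single window.

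Split into 10 kb blocks with at least 20 used sites, the low-difference windows had a block median of 2.53 points, with quartiles of 0.713 and 4.12. Of their 3102 blocks 41.5% were below 2 points, against 13.0% in the other methylated windows, and 18.7% against 2.90% were lower in Bull1. A window had a median of 4 blocks below 2 points, and the highest number was 8. Blocks with a pooled level under 50% made up 8.12% and 1.83%. Leaving out from each window the 1 block that lowered its difference most, which raises the value by construction, gave a median of 2.38 points in place of 1.61, and 4.48 in place of 4.08 in the other methylated windows. After it 55 of the 312 windows were still below 2 points.

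The window with the lowest difference was chr17:37400001-37500000, with 69.4% in Bull1 (68.6 to 70.1%) and 70.1% in Bull2 (69.3 to 70.8%) over 491 sites, a difference of -0.673 points. Its last block, chr17:37490001-37500000, held 57 of these sites but 4639 of the 14758 reads of Bull1 and 3591 of the 13290 of Bull2. The block was 32.6% and 36.8% methylated, and without it the window had 3.89 points. With shared weights the block had 0.583 points and the window 2.94. Its neighbours had 3.72 and 5.55 points.

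The window chr9:52200001-52300000 followed the same pattern. Its levels were 67.6% and 68.1%, a difference of -0.456 points. In chr9:52230001-52240000 only 49 sites held 5098 reads of Bull1 and 3762 of Bull2, at 19.0% and 19.2% methylation, and without this block the window had 3.65 points. In chr22:45400001-45500000, with 69.6% in both bulls and a difference of 0.0233 points, the block chr22:45490001-45500000 held 7175 and 5643 reads at 32.1% and 34.2%. Without it the difference was 3.71 points. In these 3 windows leaving out a single deeply read and weakly methylated block thus brought the difference to between 3.65 and 3.89 points.

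In 4 further windows of the 10 lowest a single block mattered less. The windows chr10:42800001-42900000, chr21:49600001-49700000 and chr3:20400001-20500000 had 67.9% in both bulls, 67.9% in both and 66.7% against 66.6%. Between 26.4 and 32.2% of their sites were pooled under 20%. Without the strongest block they reached 1.11, 1.03 and 1.15 points, and with shared weights 3.20, 2.34 and 2.77. In chr12:78600001-78700000, with 66.5% and 66.4%, only 2.34% of sites were pooled under 20%, and the values were 1.06 and 2.01 points. Its strongest block, chr12:78650001-78660000, had 20 used sites with 2751 reads in Bull1 and 1718 in Bull2, at 49.6% and 52.2%.

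The remaining 3 of the 10 lay near chromosome ends and stayed low by either weighting. In chr11:106200001-106300000, 1011 kb from the last listed site, the levels were 76.1% and 76.5%. The difference was -0.401 points, 1.21 with shared weights, and 53.4% of its used sites were dense. Only 1790 of its 4497 listed sites could be used. Its strongest block, chr11:106220001-106230000, had 27.04% and 31.2%. In chr18:900001-1000000 the levels were 68.8% and 68.7%, a difference of 0.0751 points and 0.679 with shared weights. Its strongest block, chr18:940001-950000, had 53.7% and 58.8% and was lower in Bull1 by either weighting, with -5.14 points and -5.30 with shared weights. In chr19:1200001-1300000 they were 65.4% and 65.2%, a difference of 0.167 points and -0.126 with shared weights, the lowest of all 312 by that measure. Neither of these last windows had a dense site, and 7 of the 10 blocks were below 2 points in each.

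**Figure D4:**
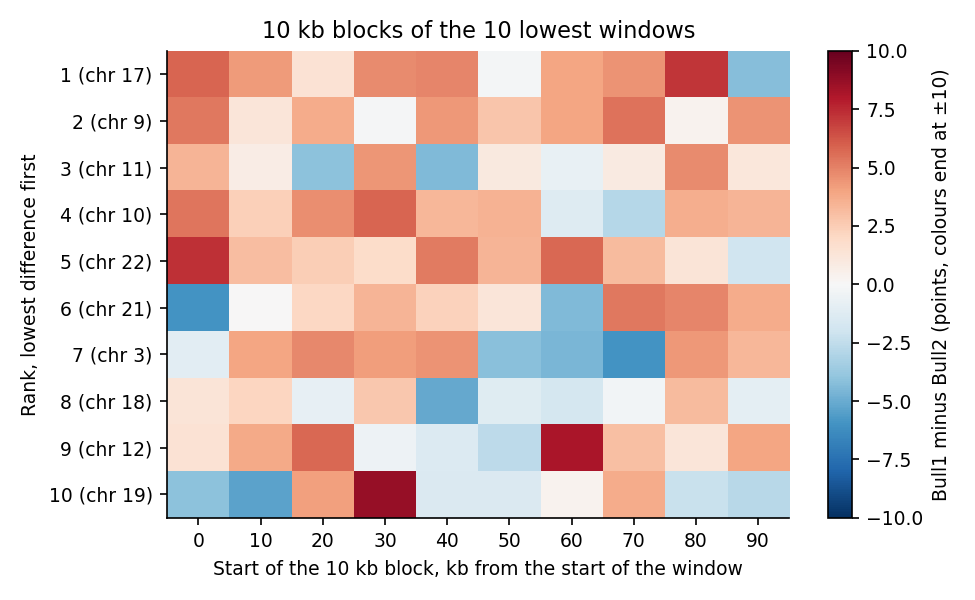
Bull1 minus Bull2 in percentage points for the 10 kb blocks of the 10 windows with the lowest difference, by rank from the top, with the chromosome in brackets. Red blocks are higher and blue blocks lower in Bull1. In the first window the last block, at -4.24 points, is the only clearly blue one, whereas blue blocks are spread over the window on chromosome 19 at the bottom.

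Position set groups of windows apart. The first 3 Mb of chromosomes, the side of the centromere, held 34 of the 312 windows (10.9%) on 21 chromosomes, against 2.23% of the other methylated windows. Of the 547 methylated windows there 6.22% were low-difference windows. The last 3 Mb held 29 (9.29%), against 3.47% of the others. More than 5 Mb from both ends the share among methylated windows was 1.10%, or 229 of 20883. The general difference was also smaller at the ends, with medians over methylated windows of 3.66 points in the first and 3.48 in the last 3 Mb against 4.11 more than 5 Mb from both ends.

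Among the low-difference windows, those of the first 3 Mb were the least methylated and the sparsest. Their median levels were 70.6% and 69.2%, with a median of 612 used sites and a median of 0.240% dense sites. The other methylated windows there had 82.1% and 78.2%, 968 used sites and 4.6% dense sites. Between the end regions the other methylated windows had 777 used sites and 1.89% dense sites. Coverage in the low-difference windows of the first 3 Mb was 21.8 and 19.7 reads per used site. With shared weights their median was 1.89 points and 19 of 34 stayed below 2, against 43 of the 249 windows between the end regions. Their adjacent windows had a median of 2.66 points and 24.2% were below 2, while those next to windows between the end regions had 3.84 points and 3.09%. As above, adjacent windows below 2 points were not methylated by the rule. Windows next to the other methylated windows had 3.64 points and 6.58% in the first 3 Mb, and 4.09 points and 1.32% between. Among the 69 windows that stayed below 2 points with shared weights, 27.5% lay in the first 3 Mb, against 6.17% of the other 243.

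Of the windows with the lowest differences by shared weights, 3 more lay in these first 3 Mb and were chosen for display after their values were seen. They were chr23:1900001-2000000 with 72.4% and 72.04%, chr6:1500001-1600000 with 70.04% and 69.4%, and chr2:400001-500000 with 69.1% and 68.3%. Their differences were 0.363, 0.616 and 0.796 points, and 0.250, 0.589 and 0.489 with shared weights. None of them held a dense site. Next to the window on chromosome 6, both adjacent windows had low differences as well, with 1.20 and -0.776 points. Neither was methylated by the rule, since a methylated window below 2 points would have been chosen.

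The windows of the last 3 Mb were of another make. They had median levels of 82.7% and 81.0%, a median of 2275 used sites, and a median of 40.4% dense sites. The other methylated windows there had 19.3%. Only 69.5% of listed sites could be used, and coverage was 11.6 and 11.8 reads per used site, so that the higher coverage of Bull1 in the tables as a whole was absent from these medians. With shared weights the median was 2.32 points and 7 of 29 stayed below 2.

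The 5 low-difference windows with the highest level in the less methylated library, Bull2, were CpG-rich as well. The highest was chr29:48500001-48600000, with 89.0% in Bull1 (88.7 to 89.4%) and 87.3% in Bull2 (86.9 to 87.6%), a difference of 1.77 points and 2.05 with shared weights. It was followed by chr17:74000001-74100000 with 87.5% and 86.1%, chr21:71100001-71200000 with 87.6% and 85.6%, chr3:120300001-120400000 with 86.9% and 85.5%, and chr25:42600001-42700000 with 87.5% and 85.5%. Between 36.6 and 48.03% of their used sites were dense. With shared weights they had 1.51 to 2.27 points, and 3 of the 5 stayed below 2.

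**Figure D5:**
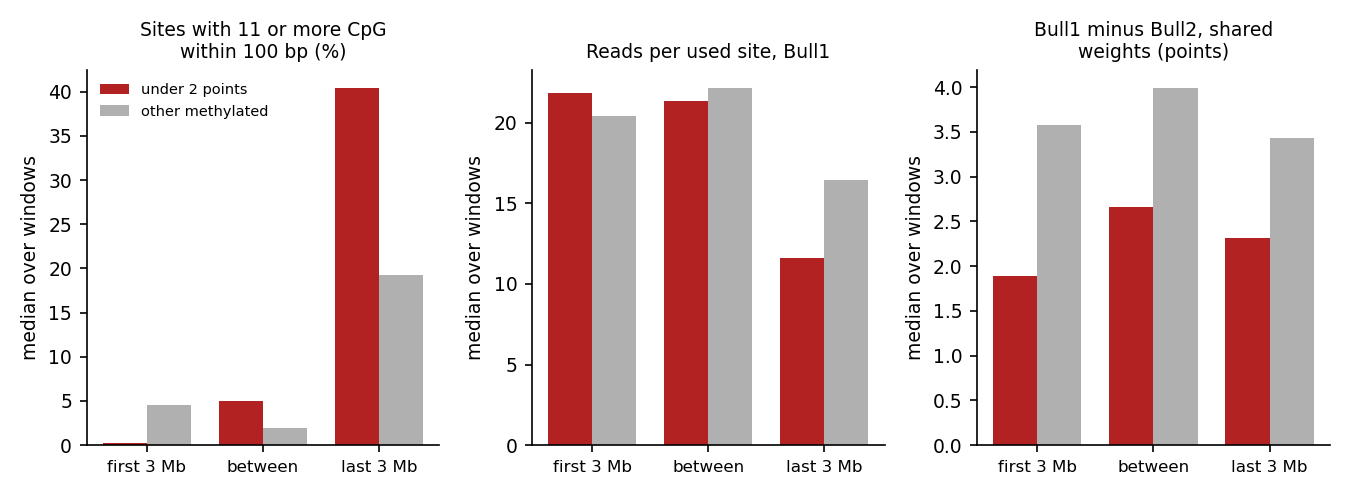
Medians over windows in the first 3 Mb, the last 3 Mb and between, for low-difference windows (red; 34, 29 and 249 windows) and other methylated windows (grey; 513, 797 and 21668). The panels give the percentage of used sites that were dense (at least 11 CpG sites within 100 bp), the reads per used site in Bull1, and Bull1 minus Bull2 in percentage points with shared weights. The red bars range from 0.240% to 40.4% in the first panel and from 1.89 to 2.66 points in the last.

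Chromosomes differed in their share of low-difference windows. Chromosome 25 had the highest, 13 of 392 methylated windows (3.32%), followed by 18 with 16 of 548 (2.92%) and 23 with 10 of 458 (2.18%). Chromosome 14 had the lowest, 6 of 818 (0.733%), followed by 24 with 5 of 608 (0.822%) and 9 with 8 of 969 (0.826%). The medians of all methylated windows were 3.63, 3.89 and 3.84 points on the first 3 and 4.12, 4.12 and 4.19 on the last 3. The first 3 thus also had the smaller general difference and more CpG sites, with medians of 1228, 1115 and 1051 used sites per window against 818, 937 and 711. The order in CpG sites was not kept beyond these chromosomes. Chromosome 3, with a share of 2.05%, had a median of 742 used sites, and chromosome 22, with 0.839%, had 947.

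Single sites were tested with a two-sided Fisher exact test over all 23978882 sites with at least 5 reads in both libraries, with Benjamini-Hochberg adjustment. It compares the libraries and uses the same contrast as the rule, so counts are given without a reading. At an adjusted p of 0.05, 1 of 328117 sites in low-difference windows was called, against 82 (0.000342%) of all sites. The study, with the same kind of test and coverage minimum, reports a far larger number of differentially methylated cytosines, most of them higher in Bull1. The cause of this gap was not tested. Without adjustment 5532 sites (1.69%) were higher in Bull1, against 2.53% of all sites, and 1460 (0.445%) were lower, against 0.346%. Lower sites were thus 20.9% of the sites called without adjustment there and 12.01% overall. Across used sites of any difference, 50.9% were higher in Bull1 and 34.5% in Bull2, against 58.2% and 32.1% in the other methylated windows.

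The called site lay at chr19:33854502, with 56.3% in Bull1 over 32 reads and 4.92% in Bull2 over 122 (Fisher exact test, adjusted p = 0.000205). It fell in chr19:33800001-33900000, a window chosen for display after its values were seen, with 70.2% and 68.4%. There the block chr19:33850001-33860000 was lower in Bull1, 35.0% against 50.9%, and Bull2 had 4939 reads to 3518. The window had 1.79 points, 0.210 with shared weights and 3.32 without this block. The called site was thus higher in Bull1 inside a block that was lower in Bull1.

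The 8 regions that the study assayed by other bisulfite methods fell in 7 windows with enough sites, of which 0 were low-difference windows. Not all of the 7 were methylated by the rule. With 1.34% of methylated windows meeting it, a count of 0 among so few tells nothing of these regions. One of the 7, chr23:27300001-27400000, had a difference of 1.92 points but levels of 55.9% and 53.99%, under the limit. Another, chr4:69300001-69400000, had a difference of 3.88 points and levels of 31.4% and 27.5%, also under the limit. Values of 100 kb windows do not describe the much shorter assayed regions inside them.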

How the data were processed

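The deposited tables list 27203217 CpG sites per library with a methylation fraction and counts of methylated, unmethylated and all reads. The authors discarded poor reads, mapped the rest to UMD3.1 with Bismark and Bowtie2, and deduplicated them. The submitters' processing notes also name FastQC 0.11.2 and Trim Galore 0.4.0. The authors computed the fraction as methylated over all reads, and the deposited counts were not normalized. Whether reads of both strands were summed at a site is not stated. Here levels were computed from the counts with Python 3.11.15, numpy 2.4.6 and pandas 2.3.3. Window indices counted positions from 1. Of autosomal sites, 88.6% met the limits of 5 to 400 reads. CpG density used listed sites within 100 bp on each side. Shared weights gave each site its reads summed over both libraries. Exact (Clopper-Pearson) and Newcombe intervals at 95% cover counting error only, and reads spanning several sites count at each. Fisher exact tests ran per site on deposited counts. The window and test code was checked on simulated data.

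The windows and measures were chosen with earlier results of these data known. Windows named were the 10 with the lowest difference, the 5 with the highest level in the less methylated library, runs of 3 or more, those next to each limit and those with assayed regions. Chromosomes named were the 3 highest and 3 lowest shares. Pairs and 4 more windows were named after their values were seen. No sequences were read, since a genome of this build was not used.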

Additional observations from a re-analysis of the deposited data

Results flagged for a closer look

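Values from 3 sets of data that the rule leaves out are given without a reading. On chromosome X, 55 of 1089 methylated windows (5.05%) met the same limits, with a median of 1.56 points with own weights and 2.16 with shared weights, and 27 of them stayed below 2 points by the latter. Inside the low-difference windows, 262 sites above 400 reads, in 12 windows, had 25.2% methylation in Bull1 and 25.04% in Bull2. The difference was 0.117 points, beside -0.0628 points at such sites of the other methylated windows. Sites under 5 reads in at least 1 library numbered 94852 in the low-difference windows, 22.4% of listed sites. They had 57.7% and 54.8%, a difference of 2.88 points, beside 7.55 points at such sites of the other methylated windows.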

How the results depend on the processing

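The number of low-difference windows was 156 with unweighted site means, 100 with shared weights, 162 with sites of fewer than 6 CpG sites within 100 bp, 45 under 1 point, 2360 under 3 points and 1596 with 50 kb windows. The limits of 1 and 3 points change the count by construction. With 50 kb windows the share of methylated windows that met the limit rose as well, from 1.34% to 3.44%, and the cause of this and of the other changes was not tested. Of the 312 windows, 70 were kept with unweighted means, 69 with shared weights and 81 with sparse sites. With a coverage maximum of 100 reads the number was again 312, of which 295 were shared, and with a minimum of 10 reads it was 249, of which 176 were shared. Over the 312 windows the difference was 1.75 points with a minimum of 10 reads, 1.496 with a maximum of 100, 2.41 with unweighted means, 2.55 with shared weights and 2.40 with sparse sites, and Bull1 was higher under each alternative run. The median number of sites per window stayed between 574 and 814.5, and the pooled difference was 3.62 points in adjacent windows. In the larger sets chosen on odd-numbered or even-numbered blocks it was 3.58 and 3.62 points over the blocks left out. No paired analysis was possible because a single library was made per bull, and for the same reason no library could be left out. Depth limits single windows to about a point.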
